A study of Homo sapiens with 6 samples.

Results

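The HOX genes are the 39 homeobox transcription factor genes of the HOXA, HOXB, HOXC and HOXD clusters, and their messenger RNA was compared between 3 libraries of A2780 cells with pGIPZ-NC and 3 with shUSP39. Members were all gene symbols of the deposited count table made of HOXA, HOXB, HOXC or HOXD and a number, which gave 39 of 16571 symbols and 44 of 21368 transcripts. The results below are for 38 of the 39 genes. A2780 is an established human ovarian cancer line, labelled serous. All cells were infected with lentivirus and had no other treatment named in the labels. The pGIPZ-NC cells carried the control form of this hairpin vector, and the shUSP39 cells carried a knockdown hairpin whose target, USP39, belongs to the spliceosome. The study cloned more than 1 hairpin, and the labels do not say which one a library carried. The design text calls the replicates biological, but nothing says that they came from separate infections, so the p-values measure the spread between these libraries. USP39 was not analysed here, and the labels could not be checked against it.

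HOX proteins bind DNA through a homeodomain, usually together with TALE cofactors of the PBX and MEIS families, and give regions along the body axis their identity. Genes of a cluster lie in the order of their paralogue numbers, and genes with low numbers act toward the head and those with high numbers toward the tail. Polycomb complexes keep HOX clusters silent, MLL complexes keep them active, and retinoic acid switches on the low-numbered end. In the female tract, the high-numbered HOXA genes pattern the Müllerian ducts.

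The libraries held 28294819 to 32939264 counts. In pGIPZ-NC and shUSP39 replicate 1, between 12662 and 12819 genes had a count, against 15446 and 14890 in shUSP39 replicates 2 and 3, which therefore stood apart. HOX results are also given without these 2 libraries where that changes them. The serous label was checked on 11 serous carcinoma markers (WT1 was not analysed here). Their summed level was 22.3 to 25.4 CPM (counts scaled to library size with TMM, the trimmed mean of M-values) in pGIPZ-NC and 32.7 to 39.6 CPM in shUSP39. Most of this was KRT18, while PAX8, SOX17, EPCAM, CDH1, MECOM, MSLN and ESR1 had at most 6 counts in any library. MUC16 had 5, 1 and 1 counts in pGIPZ-NC and 6, 150 and 71 in shUSP39, with the high counts in the 2 libraries that stood apart. KRT8 had 28, 37 and 26 counts in pGIPZ-NC and 3, 0 and 0 in shUSP39. Of 5 fibroblast markers, COL1A2, DCN and LUM were called lower by the edgeR test given below, as were 17.5% of all genes tested. COL1A1 and PDGFRB did not pass, and DCN and LUM had at most 16 counts in a shUSP39 library. The 5 fibroblast markers summed to 1133 to 1198 CPM in pGIPZ-NC and 455 to 476 CPM in shUSP39, nearly all of it COL1A2. The leukocyte markers summed to 9.08 to 12.1 CPM over all 6 libraries, nearly all CD68, and the endothelial markers stayed at or below 2.06 CPM. PTPRC and PECAM1 had at most 7 counts. Whether these markers take part in the HOX differences was not tested.

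HOXB6 is shown first because the study designed primers for its spliced and unspliced RNA. The study turned to this gene after combining RNA bound to USP39 with transcripts whose expression and splicing efficiency were lower in its knockdown RNA-seq. That RNA-seq is the source of the counts used here, so a lower HOXB6 level in them is not independent of that choice. By RT-PCR the study reported more unspliced and less spliced RNA with USP39 knocked down. HOXB6 lies on chromosome 17 from 46673113 to 46682354 (GRCh37, minus strand), and its canonical transcript in GENCODE 44 has 4 exons. The last intron, chr17:46674035-46675097, is 1063 bases long. Its 5′ and 3′ splice sites are printed with the intron's first and last 2 bases in capitals. Below them stand the forward primers for spliced and unspliced RNA.
HOXB6 donor, chr17:46675078-46675107: tcgtgcaacaGTgagtgagacttcccgtcg
HOXB6 acceptor, chr17:46674025-46674054: atctccactctgcgtaacAGgttcctcctt
HOXB6-mRNA-F: caacagttcctcctttgggc
HOXB6-preRNA-F: cagtgagtgagacttcccgt
The first primer matches only the joined exons, with 5 bases in exon 3 and 15 in exon 4. The other lies across the exon-intron boundary, with 2 bases in exon 3 and 18 in the intron. The counts analysed here are per messenger RNA and do not separate spliced from unspliced molecules. HOX genes have few introns. Of the 38 canonical transcripts, 34 have 1 intron, all 49 introns start with GT and end with AG, and the last introns are 146 to 5357 bases long.

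Of the 38 genes, 25 had enough counts to be tested. In shUSP39, 14 were lower and 3 higher at an adjusted p under 0.05 (quasi-likelihood test of edgeR, adjusted by Benjamini-Hochberg over all 10695 genes tested), and 8 did not pass. Over all genes 17.5% were lower and 16.1% higher. The median log2 fold change of shUSP39 over pGIPZ-NC was -0.39 over the 25 HOX genes and 0.01 over all genes tested. Beyond 2-fold, HOXA2, HOXD4 and HOXD13 were lower and HOXC13 and HOXD1 were higher, against 2.28% of all genes lower and 4.53% higher by that rule. HOXD4 and HOXD13 had enough counts for the test in pGIPZ-NC only. With at least 10 counts asked of every library, 1 HOX gene was lower beyond 2-fold. The libraries of both groups did not overlap in 21 of the 25 genes, against 44.2% of all genes. In such bulk samples, fewer cells with a transcript and less transcript per cell cannot be told apart. Without shUSP39 replicates 2 and 3, which leaves 1 library in that group, every called HOX gene kept its direction. Fewer HOX genes then passed, as was so over all genes.

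HOX transcripts took 0.221% to 0.231% of all counts in pGIPZ-NC and 0.177% to 0.18% in shUSP39. The HOXB cluster held 77.7% of the HOX signal in pGIPZ-NC and the HOXC cluster 20.5%, while HOXA and HOXD together made up the small remainder. Summed over its genes, HOXB went from 1774 ± 32.0 to 1347 ± 15.4 CPM and HOXC from 467 ± 12.9 to 388 ± 2.67 CPM (SD, n = 3 each). HOXA went from 35.4 ± 1.56 to 28.3 ± 3.94 CPM and HOXD from 6.98 ± 0.251 to 5.22 ± 0.838 CPM (SD, n = 3 each). In each cluster every shUSP39 library lay below every pGIPZ-NC library. These sums were dominated by the few abundant genes of each cluster, and no test was made on them.

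**Figure D1:**
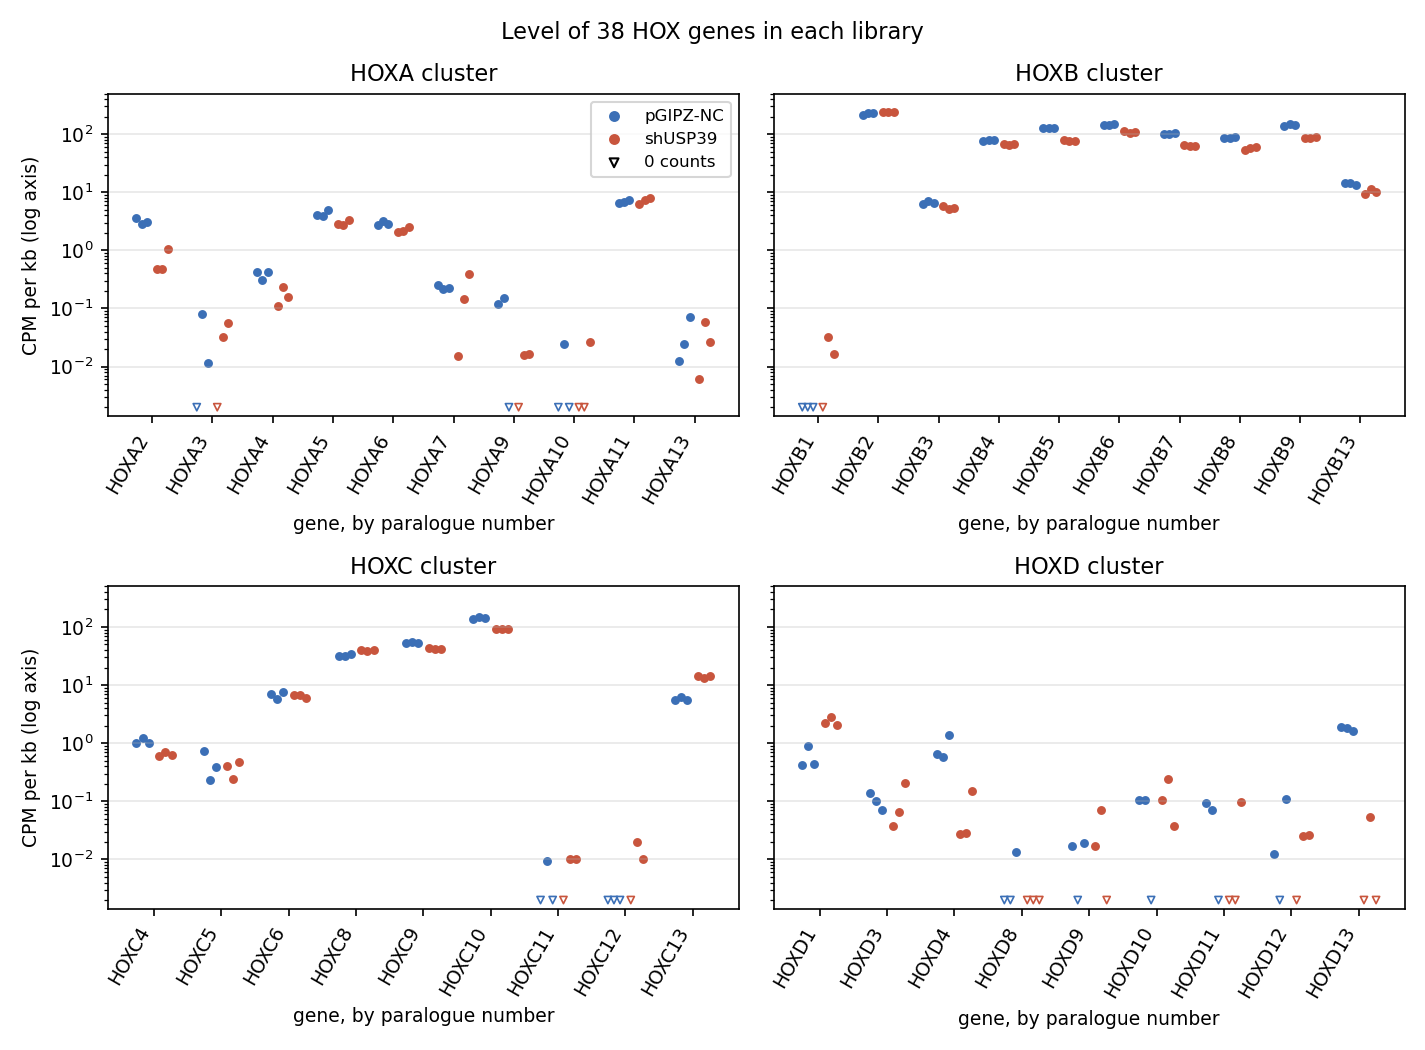
Level of each HOX gene in each library as CPM per kilobase of the canonical transcript, on a log axis, with 1 panel per cluster and genes in the order of their paralogue numbers. Points are single libraries and open triangles at the bottom are libraries with 0 counts. HOXB2, HOXB4 to HOXB9 and HOXC8 to HOXC10 hold the high levels, and most of HOXD is near 0.

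Per kilobase of transcript, HOXB2 was highest in pGIPZ-NC at 224.5 ± 7.99 CPM per kb (SD, n = 3). HOXB9, HOXB6 and HOXC10 followed at 144 ± 3.78, 143 ± 2.89 and 142 ± 6.58 CPM per kb, levels that lay within each other's spread, and HOXB5 stood at 128 ± 1.09 CPM per kb (SD, n = 3 each). In contrast, HOXA10 and HOXA9, which pattern the Müllerian ducts, had counts near 0. The table may leave out reads that several transcripts share, and broadly used genes such as SP1 and ATF2 had at most 5 counts in a library, so low counts do not show that a gene was silent. HOXA10 had 0, 2 and 0 counts in pGIPZ-NC and 0, 0 and 2 in shUSP39. HOXA9 had 8, 10 and 0 counts in pGIPZ-NC and 0, 1 and 1 in shUSP39. The other untested genes were HOXA3, HOXA13, HOXB1, HOXC11, HOXC12, HOXD3, HOXD8, HOXD9, HOXD10, HOXD11 and HOXD12. None of these had more than 15 counts in a library. For these 13 genes a difference was not detectable at this depth.

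The HOXB genes changed in the same direction from HOXB3 to HOXB13. Of the 9 tested members 8 were lower in shUSP39, against 17.5% of all genes tested. HOXB2 did not pass and HOXB1 was untested, with at most 2 counts in a library. HOXB9, a thoracic patterning gene, had 11532, 12370 and 10577 counts in pGIPZ-NC and 7107, 6756 and 6753 in shUSP39. Its level fell from 372 ± 9.77 to 224 ± 4.03 CPM (SD, n = 3 each), or a log2 fold change of -0.74 (SE 0.04, edgeR's adjusted p 1.08e-14). All shUSP39 libraries lay far below the control libraries. HOXB5, which acts in the enteric nervous system, had 7575, 7688 and 6792 counts in pGIPZ-NC and 4622, 4380 and 4218 in shUSP39, with a log2 fold change of -0.73 (SE 0.04). HOXB7 had 4419, 4452 and 4001 counts in pGIPZ-NC and 2824, 2613 and 2568 in shUSP39, with a log2 fold change of -0.68 (SE 0.05). HOXB8, which can immortalise myeloid progenitors when forced on, had 5901, 5947 and 5434 counts in pGIPZ-NC and 3696, 3814 and 3821 in shUSP39, with a log2 fold change of -0.60 (SE 0.05). In all of these genes the groups were clearly apart, and each shUSP39 level was between 0.601 and 0.659 of control by the fitted fold.

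HOXB6 changed less than its neighbours HOXB5 and HOXB7, although the difference between the genes was not tested. It had 7551, 7703 and 6928 counts in pGIPZ-NC and 5987, 5469 and 5460 in shUSP39. Its level fell from 239.8 ± 4.85 to 183 ± 4.31 CPM (SD, n = 3 each). This was a log2 fold change of -0.39 (SE 0.04, edgeR's adjusted p 1.77e-08). The groups did not overlap. Of the exonic bases of HOXB6, 18.2% overlap the antisense gene HOXB-AS3 and 11.2% overlap HOXB3 on the same strand. Whether strand was used in counting is not stated, so reads in those bases are uncertain.

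HOXB13, HOXB4 and HOXB3 were also lower. HOXB13, known as a prostate lineage gene, had 1404, 1426 and 1150 counts in pGIPZ-NC and 905, 1053 and 893 in shUSP39, with a log2 fold change of -0.47 (SE 0.08). HOXB4, a regulator of blood stem cells, was lower by a log2 fold change of -0.20 (SE 0.05, edgeR's adjusted p 7.74e-04). HOXB3 was lower by -0.28 (SE 0.10, edgeR's adjusted p 0.0242), a call that was lost in 6 of 16 alternatives, with an adjusted p of 0.417 without shUSP39 replicates 2 and 3 and between 0.0727 and 0.107 without pGIPZ-NC replicate 2, shUSP39 replicate 2 or shUSP39 replicate 3. HOXB2, a hindbrain patterning gene at the low-numbered end, had 11545, 12539 and 10860 counts in pGIPZ-NC and 12717, 12271 and 12098 in shUSP39. Its raw counts overlapped while its CPM did not, and its log2 fold change was 0.09 (SE 0.04, edgeR's adjusted p 0.0515). HOXB2 passed on the higher side in 7 of 16 alternatives.

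**Figure D2:**
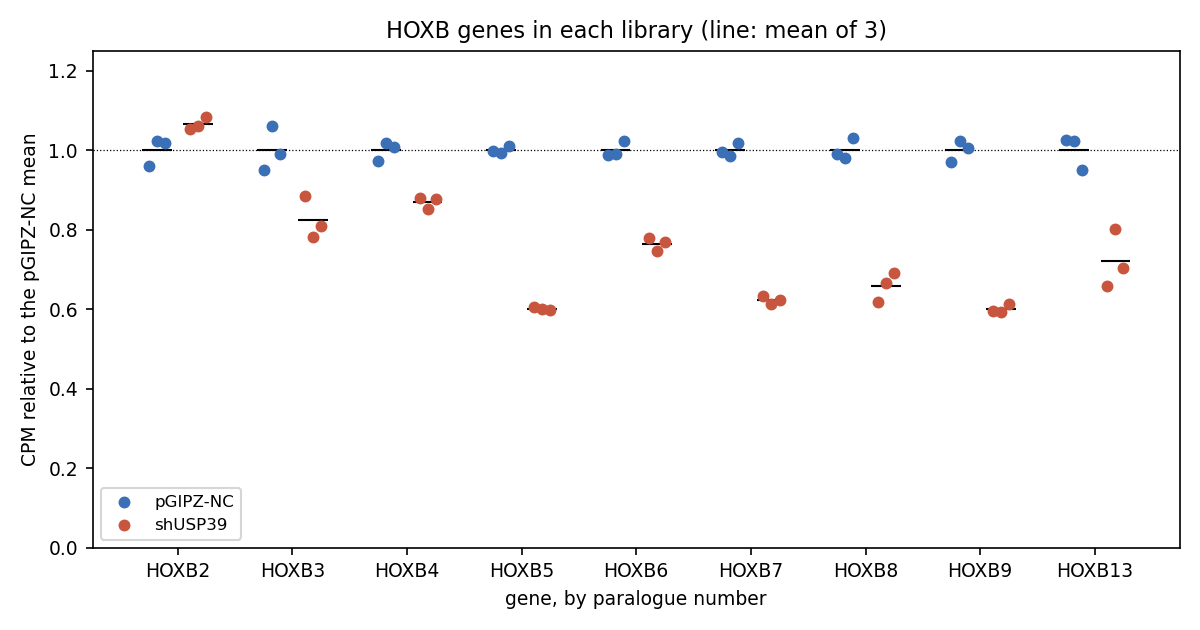
CPM of each tested HOXB gene in each library, divided by its pGIPZ-NC mean, with the axis starting at 0. Points are libraries, lines are means of 3, and the dotted line is the control mean. HOXB5, HOXB7, HOXB8 and HOXB9 sit lowest in shUSP39, and HOXB2 sits slightly above its control mean.

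In the HOXC cluster, changes went both ways. HOXC10, a gene of lumbar motor neurons and hindlimb, had 8559, 9560 and 7886 counts in pGIPZ-NC and 5834, 5691 and 5326 in shUSP39, and its log2 fold change was -0.62 (SE 0.04, edgeR's adjusted p 3.64e-12). HOXC9 had 2524, 2624 and 2233 counts in pGIPZ-NC and 2075, 1904 and 1839 in shUSP39, with a log2 fold change of -0.34 (SE 0.06). HOXC8, which patterns brachial motor neurons, was higher instead, with 2485, 2479 and 2374 counts in pGIPZ-NC and 3113, 2907 and 2893 in shUSP39 and a log2 fold change of 0.28 (SE 0.06). Neighbours on chromosome 12 thus differed in direction, and in all 3 the groups did not overlap. HOXC13 (chromosome 12, 54332615 to 54340328, plus strand, GRCh37), which controls hair and nail keratins, rose most in this cluster. It had 418, 481 and 367 counts in pGIPZ-NC and 1082, 943 and 1018 in shUSP39. Its level rose from 13.6 ± 1.01 to 33.01 ± 1.93 CPM (SD, n = 3 each). This was a log2 fold change of 1.27 (SE 0.09, edgeR's adjusted p 1.86e-11).

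HOXC4, HOXC5 and HOXC6 did not pass. HOXC4 had 54, 68 and 48 counts in pGIPZ-NC and 33, 37 and 32 in shUSP39, without overlap, and its log2 fold change was -0.72 (SE 0.32, edgeR's adjusted p 0.0862). HOXC5 had 37, 12 and 18 counts against 21, 12 and 23, and HOXC6 had 374, 312 and 360 against 358, 344 and 290, both with overlap. Of the exonic bases of HOXC5, 67.3% overlap other annotated transcripts on its own strand.

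The HOXD cluster was low but held the largest changes of the 25 tested HOX genes in both directions. HOXD13 and HOXD4 had enough counts for the test in pGIPZ-NC only. HOXD13 (chromosome 2, 176957449 to 176960672, plus strand, GRCh37), a digit and external genital patterning gene, had 146, 142 and 110 counts in pGIPZ-NC and 0, 4 and 0 in shUSP39. Its transcript was almost gone from the knockdown libraries. The level went from 4.28 ± 0.350 to 0.0436 ± 0.0755 CPM (SD, n = 3 each). This was a log2 fold change of -6.50 (SE 0.51, edgeR's adjusted p 7.20e-11), rank 6 among the falls of 10695 genes. The size of this fold rests on the 4 counts of 1 shUSP39 library. Without shUSP39 replicate 2, the library with the 4 counts, the fitted log2 fold change was -10.05, a size set by the model for genes at 0. HOXD4 (chromosome 2, 177016278 to 177017954, plus strand, GRCh37) had 24, 21 and 44 counts in pGIPZ-NC and 1, 1 and 5 in shUSP39, with no overlap, a log2 fold change of -3.61 (SE 0.72, edgeR's adjusted p 2.45e-04). The HOXD4 log2 fold change was -4.77 without shUSP39 replicate 3, the library with 5 counts.

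HOXD1 lies at the other end of the cluster (chromosome 2, 177053396 to 177055635, plus strand, GRCh37) and rose. It had 25, 55 and 23 counts in pGIPZ-NC and 136, 160 and 116 in shUSP39. The level went from 1.10 ± 0.516 to 4.47 ± 0.679 CPM (SD, n = 3 each). This was a log2 fold change of 2.01 (SE 0.28, edgeR's adjusted p 2.36e-06). All shUSP39 libraries were above all control libraries. Of the exonic bases of HOXD1, 60.1% overlap genes on the other strand, HAGLR among them, and since use of strand is not stated, reads of HOXD1 and HAGLR cannot be told apart there.

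In the HOXA cluster 2 of 6 tested genes were lower, against 17.5% of all genes tested. HOXA2 (chromosome 7, 27139973 to 27142305, minus strand, GRCh37), which sets the identity of the second pharyngeal arch, had 193, 157 and 148 counts in pGIPZ-NC and 26, 25 and 52 in shUSP39, with a log2 fold change of -2.26 (SE 0.27, edgeR's adjusted p 1.71e-07). The groups of HOXA2 were far apart. HOXA5, a lung patterning gene, had 218, 214 and 233 counts in pGIPZ-NC and 149, 137 and 166 in shUSP39, with a log2 fold change of -0.56 (SE 0.17, edgeR's adjusted p 0.0107). The HOXA5 call was lost in 3 of 16 alternatives, with an adjusted p of 0.0663 without pGIPZ-NC replicate 3, 0.0512 without shUSP39 replicate 2 and 0.0613 without shUSP39 replicates 2 and 3.

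HOXA4, HOXA6, HOXA7 and HOXA11 did not pass. HOXA4 had 23, 17 and 20 counts in pGIPZ-NC and 6, 12 and 8 in shUSP39, with an adjusted p of 0.12 by edgeR's quasi-likelihood test, and HOXA6 had 86, 101 and 78 against 65, 65 and 73. HOXA7 had 16, 14 and 13 counts in pGIPZ-NC and 1, 9 and 23 in shUSP39, so the shUSP39 libraries spread around the controls. Of its exonic bases 74.8% overlap HOXA-AS3 on the other strand. HOXA11, needed for the uterine lining and the most abundant HOXA gene here, had 550, 600 and 548 counts against 533, 602 and 621, with a log2 fold change of 0.06 (SE 0.10). Of its exonic bases 27.2% overlap HOXA11-AS on the other strand, so its reads are uncertain there.

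**Figure D3:**
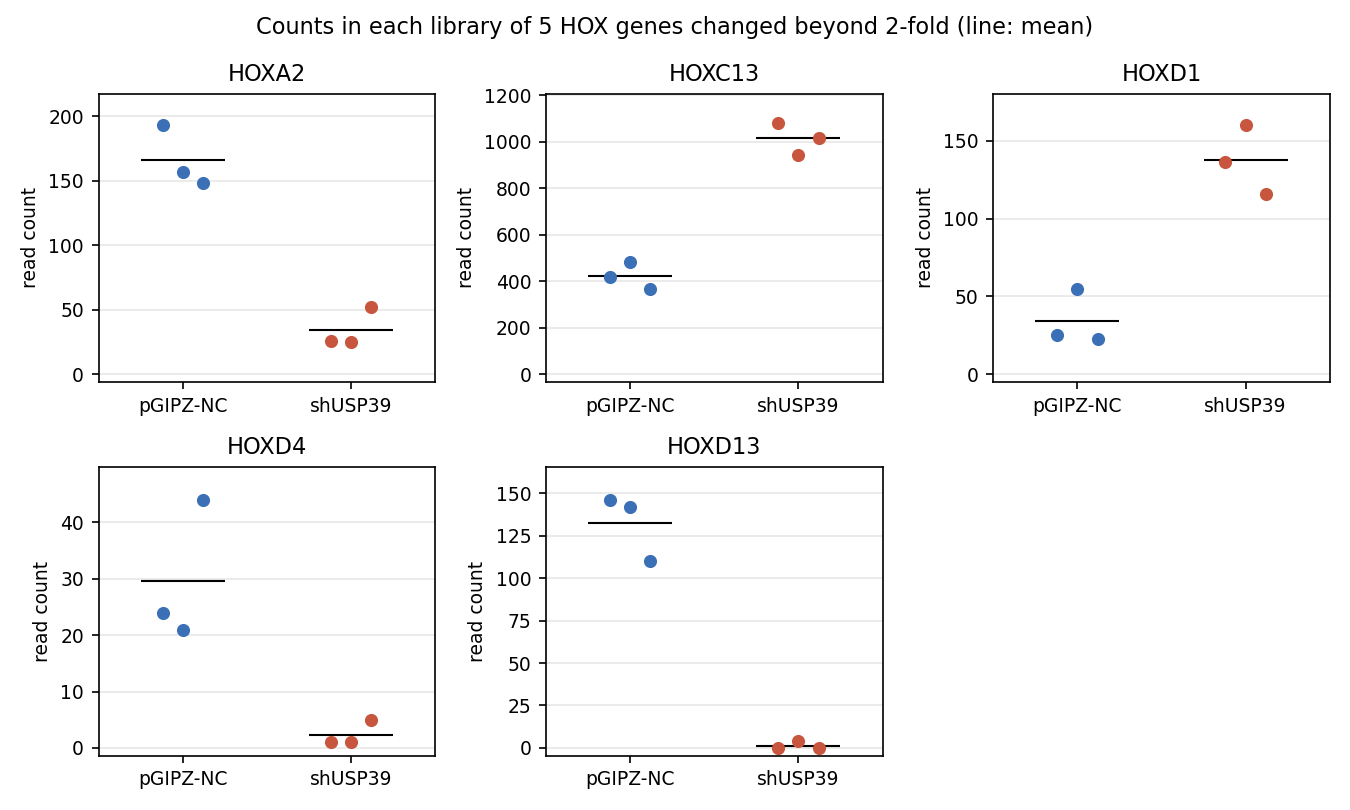
Read counts in each library of the 5 HOX genes that changed beyond 2-fold, 1 panel per gene on its own scale that starts at 0. Points are libraries and lines are means of 3. HOXD13 and HOXD4 sit at or near 0 in shUSP39, while HOXC13 and HOXD1 are higher in all 3 shUSP39 libraries.

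The promoters of these genes are shown because HOXD1 and HOXD13 are members of 1 cluster that moved in opposite directions and HOXA2 and HOXD4 fell as HOXD13 did. The 250 bases before the gene start are from RefSeq (GRCh38.p14), whose table matched 20 of the 38 genes with 27 promoters. HOXC13 had no entry. Capitals mark TATAAA in either direction or a match to TGATNNAT, a PBX and HOX type motif.
HOXD13, chr2:176092471-176092720, plus strand: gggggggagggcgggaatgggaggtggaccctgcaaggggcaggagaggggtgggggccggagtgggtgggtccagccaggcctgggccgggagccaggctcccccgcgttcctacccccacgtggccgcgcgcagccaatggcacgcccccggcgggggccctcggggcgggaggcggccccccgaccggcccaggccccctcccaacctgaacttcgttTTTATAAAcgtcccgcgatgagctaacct
HOXD4, chr2:176151300-176151549, plus strand: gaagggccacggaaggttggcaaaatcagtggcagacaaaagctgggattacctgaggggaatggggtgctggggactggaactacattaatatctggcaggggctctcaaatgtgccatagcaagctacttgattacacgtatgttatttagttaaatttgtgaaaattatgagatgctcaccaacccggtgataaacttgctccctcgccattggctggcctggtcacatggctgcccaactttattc
HOXD1, chr2:176188418-176188667, plus strand: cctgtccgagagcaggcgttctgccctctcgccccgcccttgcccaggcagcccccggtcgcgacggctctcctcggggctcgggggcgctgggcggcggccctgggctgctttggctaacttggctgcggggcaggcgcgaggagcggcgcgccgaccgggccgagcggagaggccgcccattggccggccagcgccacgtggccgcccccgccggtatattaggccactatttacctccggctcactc
HOXA2, chr7:27102684-27102933, minus strand: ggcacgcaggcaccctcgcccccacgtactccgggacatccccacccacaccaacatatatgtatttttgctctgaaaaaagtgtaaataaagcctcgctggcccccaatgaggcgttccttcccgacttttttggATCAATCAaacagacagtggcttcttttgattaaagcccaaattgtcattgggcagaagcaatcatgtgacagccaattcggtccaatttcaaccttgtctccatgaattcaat
HOXD13 holds TATAAA on both strands in overlapping letters, a motif found in 10.7% of all 35116 promoters of the table and 18.5% of the 27 HOX promoters. HOXA2 holds TGATNNAT, found in 6.47% of all and 11.1% of the HOX promoters. HOXD1 and HOXD4 hold none of the motifs searched, which also took in TAATTA (4.35% of promoters) and the DR2 and DR5 elements of retinoic acid receptors (0.0313% and 0.074%), on both strands. CG dinucleotides numbered 31 in HOXD1, 21 in HOXD13, 8 in HOXA2 and 4 in HOXD4, against a median of 19 in the HOX promoters and 11 in all. The genes that fell thus include both CG-rich and CG-poor promoters. These matches are descriptions of the letters and not of binding.

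By paralogue number, 4 of 7 members of groups 1 to 3 were tested, of which 2 were lower and 1 higher. In groups 4 to 8, 14 of 15 were tested, with 7 lower and 1 higher, and in groups 9 to 13, 7 of 16 were tested, with 5 lower and 1 higher. The shares over all genes tested were 17.5% lower and 16.1% higher. Members of 1 group did not always share a direction. In group 13, HOXB13 and HOXD13 were lower and HOXC13 higher. In group 8, HOXB8 was lower and HOXC8 higher. In group 9, both tested members, HOXB9 and HOXC9, were lower.

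**Figure D4:**
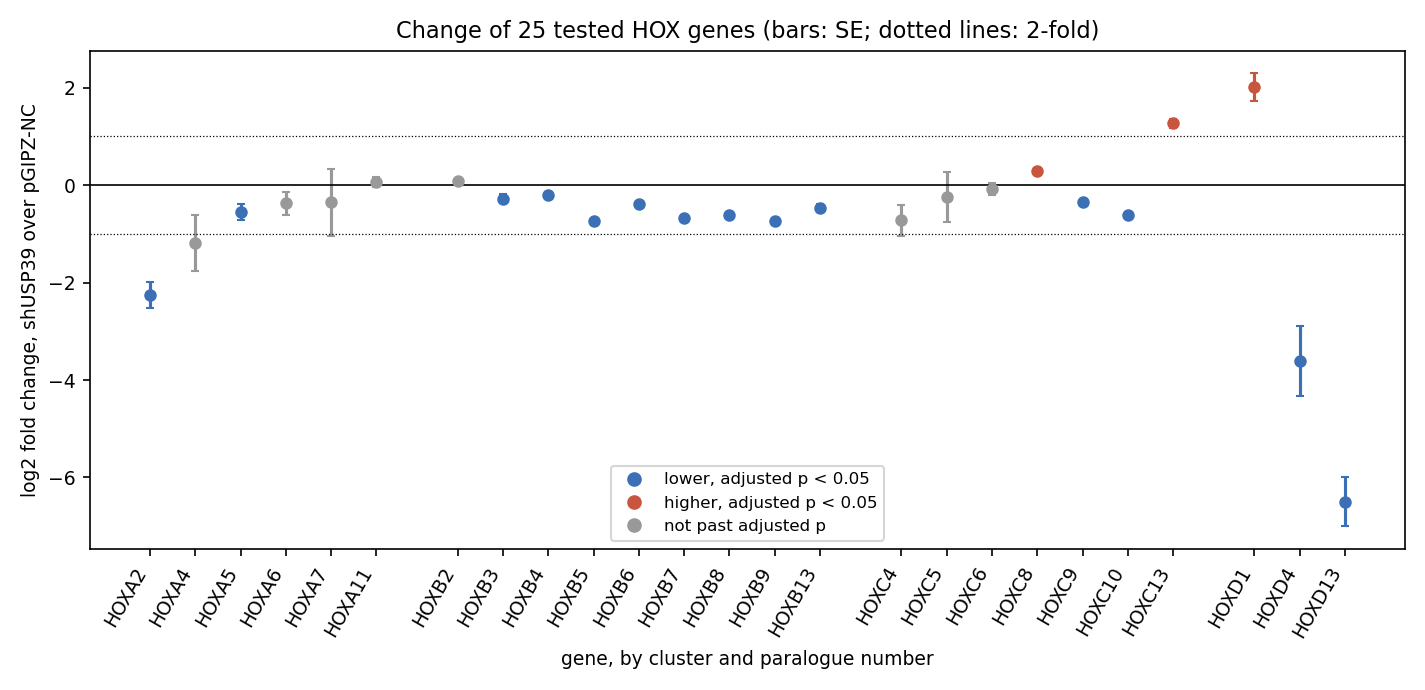
Log2 fold change of shUSP39 over pGIPZ-NC for the 25 tested HOX genes, by cluster and paralogue number. Bars are the SE, colours give the call, and dotted lines mark 2-fold. Of these genes 14 are lower and 3 higher, with HOXD13 lowest at -6.50 and HOXD1 highest at 2.01.

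At the level of transcripts, 34 genes had a single transcript in the table, so gene and transcript are the same there. Of 29 HOX transcripts tested, 13 were lower and 3 higher, against 15.1% lower and 14.2% higher over 12553 transcripts. HOXB3 had 3 transcripts, of which the main one had 588, 675 and 530 counts in pGIPZ-NC and 540, 487 and 475 in shUSP39. HOXC4 and HOXC6 had 2 each. No single transcript of HOXB3, HOXC4 or HOXC6 was called, and HOXA3, with 2 transcripts, was untested.

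The genes that act with or upon HOX clusters were then examined in fixed lists of 97 cofactors, chromatin regulators, retinoic acid genes and genes flanking the clusters. Of the 68 tested, 19 were lower and 7 higher by the same rule (17.5% and 16.1% of all genes), with a median log2 fold change of -0.04. The split was 15 lower and 12 higher under upper-quartile scaling and 16 and 11 with library size only. Without shUSP39 replicates 2 and 3 it was 11 and 5.

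Among the TALE cofactors 5 of 9 were tested, with 2 lower and 1 higher, against 17.5% and 16.1% of all genes. PBX2, the most abundant PBX gene tested, had 7544, 7378 and 6634 counts in pGIPZ-NC and 5647, 5003 and 4816 in shUSP39, with a log2 fold change of -0.48 (SE 0.04). MEIS1 rose, with 1139, 976 and 853 counts against 1588, 1555 and 1375 and a log2 fold change of 0.61 (SE 0.08), and MEIS2 fell by 1.55 (SE 0.36), from 2.15 to 0.733 CPM. Thus the MEIS genes moved in opposite directions.

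Of the polycomb genes, 1 PRC2 and 6 PRC1 genes passed, none beyond 2-fold. In PRC2, which writes the repressive mark H3K27me3, 1 of 9 tested genes was lower, the histone-binding RBBP7 at -0.29 (SE 0.05). EZH2, the enzyme of PRC2, had 27, 29 and 24 counts in pGIPZ-NC and 50, 29 and 45 in shUSP39 (log2 fold change 0.64, SE 0.39, adjusted p 0.223 by edgeR's quasi-likelihood test). SUZ12 stood at -0.17 (SE 0.10) and EED at -0.92 (SE 0.39), with adjusted p of 0.197 and 0.0711 by the same test. The low level of EZH2 and EED is uncertain for the reason given for HOXA9. In PRC1, which ubiquitinates histone H2A, 5 of 18 tested genes were lower and 1 higher, against 17.5% and 16.1% of all genes. The scaffold PHC1 went from 87.5 to 52.5 CPM (log2 fold change -0.74, SE 0.06), PCGF2 was lower at -0.39 (SE 0.05) and PCGF3 higher at 0.84 (SE 0.22). Among 12 MLL complex members and H3K27 demethylases, PSIP1 was lower at -0.33 (SE 0.11) and KDM6B, a demethylase of H3K27, was higher at 0.26 (SE 0.05).

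In the retinoic acid and CDX list 4 of 10 tested genes were lower and 4 higher, and 4 of these changed beyond 2-fold. Among all genes tested, 17.5% were lower and 16.1% higher, with 2.28% lower and 4.53% higher beyond 2-fold. DHRS3, which reduces retinal to retinol, had 1392, 1586 and 1336 counts in pGIPZ-NC and 257, 233 and 234 in shUSP39, a log2 fold change of -2.57 (SE 0.09). CYP26A1, which degrades retinoic acid and is itself switched on by it, had 85, 138 and 120 counts against 8, 31 and 17, with a log2 fold change of -2.60 (SE 0.36). Both lay far below control in every shUSP39 library. CRABP2, which carries retinoic acid to the nucleus, rose by 1.45 (SE 0.14) with 137, 162 and 143 counts against 400, 367 and 432, and ALDH1A3, which makes retinoic acid, rose by 2.02 (SE 0.54) from 8, 5 and 9 counts to 35, 34 and 22. ALDH1A3 had enough counts for the test in shUSP39 only. The abundant synthetic enzymes were lower, ALDH1A1 going from 2600 to 1987 CPM and RDH10 from 214 to 139 CPM. CYP26B1, of the same family as CYP26A1, was higher instead, with 185, 147 and 142 counts against 326, 259 and 199. Its log2 fold change was 0.73 (SE 0.17), and the receptor RXRA was higher at 0.72 (SE 0.18). CDX4, an activator of HOX genes in the embryo, had 0 counts in all pGIPZ-NC libraries and 0, 8 and 9 in shUSP39, with counts found in the libraries that stood apart.

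The genes flanking the clusters were listed beside them, at varying distances. EVX1, EVX2, PRAC1 and PRAC2, the listed genes nearest to HOXA13, HOXD13 and HOXB13, had at most 2 counts in a library and were untested. Tested genes could lie far off, as CHN1, which ends at 175870109 on chromosome 2 while HOXD13 starts at 176957449. Whether changes stopped at the cluster borders was therefore not tested. Of 25 flanking genes 14 were tested, with 6 lower and 8 not past the adjusted p, against 17.5% lower and 16.1% higher over all genes. Beside HOXA, SKAP2 was lower at -0.96 (SE 0.30) and HIBADH at -0.43 (SE 0.07), while SNX10 stood at 1.23 (SE 0.48) and TAX1BP1 at -0.23 (SE 0.18) without passing. Beside HOXB, CBX1 was lower at -0.25 (SE 0.06) and UBE2Z at -0.12 (SE 0.04), and SNX11 and CALCOCO2 did not pass. Beside HOXC, CBX5 was lower at -0.44 (SE 0.12) and HNRNPA1 at -0.35 (SE 0.07), with CALCOCO1 and SMUG1 not past. Beside HOXD, neither CHN1 at -0.32 (SE 0.13) nor MTX2 at 0.16 (SE 0.21) passed.

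**Figure D5:**
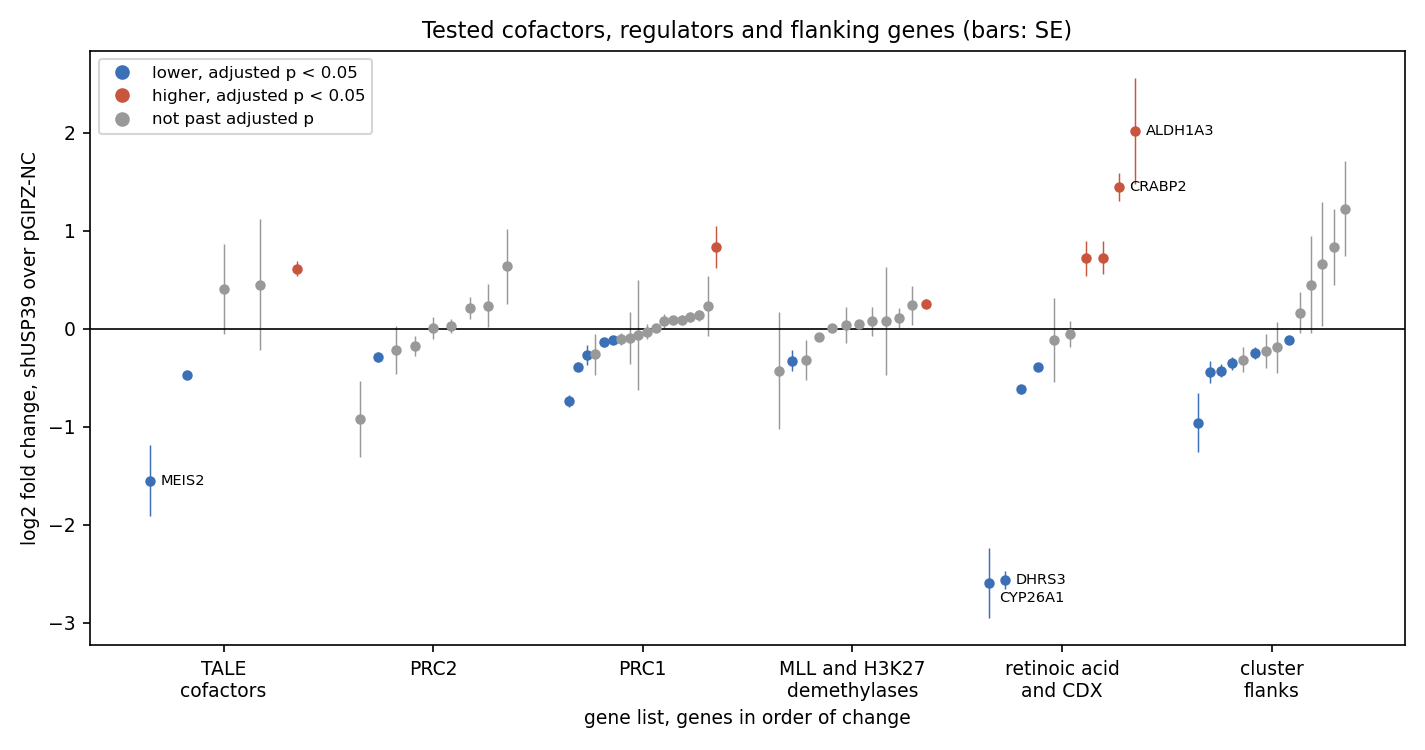
Log2 fold change of shUSP39 over pGIPZ-NC for the 68 tested cofactors, regulators and flanking genes, by list and in order of change. Bars are the SE, colours give the call, and genes past the adjusted p and beyond 2-fold are named. The large changes are MEIS2 and 4 retinoic acid genes.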

How the data were processed

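RNA-seq libraries of A2780 cells were grouped as pGIPZ-NC and shUSP39 by their titles. The authors deposited 1 table of raw read counts per RefSeq messenger RNA. The submitters' processing notes name HISAT2, Cufflinks and hg19. How counts were assigned is not given in the sources used here. The table's further columns hold the authors' group means, folds, p-values and q-values and were not used. Counts were summed per symbol. Of 47 symbols in the form of a date, 46 were replaced through the transcript's accession.

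All 6 libraries entered 1 fit in edgeR 4.0.16 (R 4.3.3) with filterByExpr, TMM scaling, robust quasi-likelihood and group as the term. Calls were made at an adjusted p under 0.05 (Benjamini-Hochberg). The SE of a log2 fold change was its size divided by the root of F. The fit was tested on simulated data. Positions, exon overlap and transcript length came from GENCODE 44 on GRCh37. Alternatives used DESeq2 1.42.0, limma 3.58.1 voom, other scalings, filters and fold limits, a replicate block, libraries left out and the main transcript of each gene.

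Of the 39 HOX genes, 1 is not reported here, the other 38 were accounted for and each tested one is described. From the other lists, genes past the adjusted p and 2-fold, the 3 with the largest changes among those past the adjusted p, tested flanking genes, EZH2, SUZ12 and EED were named. Markers, SP1, ATF2, ALDH1A1, RDH10, CYP26B1, RXRA and CDX4 named beside them were chosen after their values were seen. HOX genes and lists were chosen with earlier results of these data known. Other tested list genes enter the counts only. Of the 97 listed cofactors, regulators and flanking genes, 89 were analysed here.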

Additional observations from a re-analysis of the deposited data

How the results depend on the processing

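The count of HOX genes past the adjusted p ranged from 12 to 14 lower and from 3 to 4 higher over the alternatives, and HOXC13 and HOXD1 were the 2 genes higher beyond 2-fold in all of them. For single HOX genes, 374 values kept direction and call, 9 lost and 7 gained it. HOX genes lower beyond 2-fold numbered 8 with a limit of 1.5-fold and 1 with at least 10 counts in every library, a filter that removes genes near 0 in shUSP39. The summed log2 ratio under upper-quartile scaling was -0.35 for HOXB and -0.22 for HOXC. Listed regulators and flanking genes called lower were fewer without shUSP39 replicates 2 and 3, as over all genes. Those higher numbered 12 with upper-quartile scaling and 11 with library size only. Direction reversed in uncalled genes only, in HOXA7 (-1.505 without shUSP39 replicate 3 to 0.198 without replicate 1, and -3.732 without replicates 2 and 3), HOXA11 (-0.017 without shUSP39 replicate 3 to 0.143 without replicate 1, and -0.141 without replicates 2 and 3), HOXC5 (-0.572 without pGIPZ-NC replicate 2 to 0.278 without replicate 1) and HOXC6 (-0.192 without pGIPZ-NC replicate 2 to 0.005 without replicate 3, and 0.084 with its main transcript). The cause was not tested. Over all genes, upper-quartile scaling gave 1501 lower and 2077 higher against 1872 and 1726. Leaving out every replicate 2 and 3 of shUSP39 keeps 1 library, assumed to vary like the others. Same-numbered libraries of the groups deviated together with a correlation of 0.0688, 0.00477 and 0.0216 over genes, so the numbers were not taken as pairs. With the replicate block, 14 HOX genes were lower and 4 higher, HOXB2 being added at an adjusted p of 0.011 by edgeR's quasi-likelihood test. In genes under about 10 counts in a library, among them HOXA9 and most of HOXD, counting error is large, and whether the way reads were assigned lowered their counts was not tested.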
